A study of Homo sapiens with 9 samples.

Results

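The 7 genes of the human alcohol dehydrogenase cluster, ADH1A, ADH1B, ADH1C, ADH4, ADH5, ADH6 and ADH7, were taken by gene name from the 58735 genes of the deposited tables. They lie side by side on the minus strand of chromosome 4. Not far beyond them lies MTTP, which encodes the large subunit of the microsomal triglyceride transfer protein and is the gene that was knocked out in one of the cell lines studied. The cells were Huh-7, a human hepatoma line, in 3 groups of 3 libraries. Control cells carried wild type genes, Ako-3 cells were a clone of Huh-7 deficient in APOB, and Mko-3 cells were a clone of Huh-7 deficient in MTTP. Both knockouts were made with CRISPR/Cas9, each is represented by 1 clone, and all cells were kept overnight without serum before RNA was taken. A difference between a clone and the control cells that the targeted gene does not cause cannot be told apart from one that it does.

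Alcohol dehydrogenases are zinc enzymes that use NAD to turn alcohols into aldehydes. ADH1A, ADH1B and ADH1C, the class I enzymes, are abundant in adult liver and carry out most of the oxidation of ethanol there, with ADH4, the class II enzyme, helping at high ethanol levels. ADH5, the class III enzyme, is made in nearly every tissue and acts on formaldehyde bound to glutathione and on S-nitrosoglutathione. ADH6, of class V, has no well established substrate, and ADH7, of class IV, acts on retinol and ethanol in the lining of the stomach and esophagus. Aldehyde dehydrogenases then oxidize the aldehydes further, to acetate in the case of ethanol and to retinoic acid in the case of retinol.

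In the coordinates of the files (hg38), the cluster ran from 99070978 to 99435737 on chromosome 4, a span of 364.76 kb, and ended 128.024 kb before the start of MTTP at 99563761. In order of position, the genes were ADH5 (ENSG00000197894, 99070978 to 99088801), ADH4 (ENSG00000198099, 99123657 to 99157792), ADH6 (ENSG00000172955, 99202638 to 99219537), ADH1A (ENSG00000187758, 99276367 to 99291028), ADH1B (ENSG00000196616, 99304964 to 99352760), ADH1C (ENSG00000248144, 99336492 to 99353027) and ADH7 (ENSG00000196344, 99412261 to 99435737). As annotated in the files, ADH1B overlapped ADH1C by 16269 bases on the same strand, so reads from the shared stretch can be assigned to neither gene with certainty. The long antisense gene AP002026.1 runs through ADH4, ADH6 and ADH1A on the other strand, and the strand setting of the counting is not given in the sources used here, so reads of ADH4, ADH6 and ADH1A cannot be told apart from those of AP002026.1 where their exons overlap.

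The stretch before the start of a class I gene is shown beside that of ADH5, because the class I genes are near copies of each other and yet, as given below, only ADH1C among them was called and the others were too low to test, while ADH5 stood far above all other members. The letters come from RefSeq (GRCh38.p14), and all 7 genes had an entry. Each line covers 100 bases, which end 20 bases before the RefSeq start of the gene, read 5′ to 3′ on the minus strand. Capitals mark an E-box (CACGTG) or a GC box (GGGCGG on either strand).
ADH1C: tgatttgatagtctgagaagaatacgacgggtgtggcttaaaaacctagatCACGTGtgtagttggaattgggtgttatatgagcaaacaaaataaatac
ADH1B: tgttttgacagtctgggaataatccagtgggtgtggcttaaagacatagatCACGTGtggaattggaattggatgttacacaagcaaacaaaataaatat
ADH1A: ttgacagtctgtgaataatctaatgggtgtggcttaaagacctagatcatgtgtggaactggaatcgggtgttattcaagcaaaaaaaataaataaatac
ADH5: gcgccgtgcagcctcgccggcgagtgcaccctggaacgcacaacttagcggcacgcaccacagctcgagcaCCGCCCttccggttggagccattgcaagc
In GRCh38.p14 these lines are chr4:99352767-99352866 for ADH1C, chr4:99321422-99321521 for ADH1B, chr4:99291006-99291105 for ADH1A and chr4:99088809-99088908 for ADH5.

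Over the 250 bases before the start, both strands were searched for the E-box and the GC box spelled out above and for a TATA box with the letters TATAAA. They were also searched for the core of a site of C/EBP factors, which is spelled TTGCNNAA. None of the matches overlapped another. ADH1B and ADH1C each held 1 E-box, at 69 bases before the start, a motif present in 6.34% of the 35116 promoters of the same length. ADH1A held none, and over the 30 bases around the motif it matched ADH1C at 25 bases and ADH1B did so at 26. Within the motif ADH1A differed from ADH1C by C3T, with positions counted from 1 at the 5′ end of the E-box. ADH5 held 2 GC boxes, found in 42.6% of all promoters, and 21 CpG dinucleotides, against 6 in ADH1C, 1 in ADH1A and ADH1B, and a median of 11 over all promoters. Of the other members, ADH4 and the first of 2 entries for ADH7 each held 2 TATA boxes (10.7% of promoters hold at least 1), and ADH6 held none of the 4 motifs. The C/EBP core was found in ADH4, ADH5 and ADH7 (9.05% of promoters). A match describes letters only, and binding was not measured here.

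The 3 class I genes had coding sequences of 1128 bases each in GENCODE release 44, and these were 93.9% to 95.7% identical between pairs. Between any other pair of members the identity was 66.8% to 73.6%. Even so, reads of 150 bases, the length sequenced, seldom matched 2 members exactly. In the main transcript of ADH1C 1.61% of the 150-base windows were also found in a transcript of another member, in that of ADH1B 0.536%, and in those of the other 5 members none. Each of the 7 main transcripts has 9 exons.

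RNA was measured by sequencing of poly-A RNA. Each library held 14638727 to 20179760 counts, so that a floor of 3 counts stood at 0.149 to 0.205 CPM (counts scaled to a common library size with TMM factors over the 9 libraries). These limits cover counting error only. In this bulk RNA, fewer cells of a type and less RNA per cell cannot be told apart. All 8 hepatocyte markers were detected, and their summed level was 14849 to 15508 CPM in control, 18406 to 19363 in Ako-3 and 12476 to 13013 in Mko-3 libraries. Of the 4 bile duct markers, KRT19 and EPCAM were called higher in Mko-3 against control cells, SOX9 was 0.41 lower on the log2 scale there (edgeR adjusted p = 1.4e-05) and not called, and KRT7 had 0 counts in all libraries, with a summed level of 423 to 463 CPM in control, 393 to 409 in Ako-3 and 514 to 524 in Mko-3 libraries. The summed level of 4 endothelial markers, most of it PECAM1, was 76.8 to 87.4 CPM in control, 105 to 114 in Ako-3 and 55.5 to 61.0 in Mko-3 libraries. That of 4 macrophage markers, most of it CD14 and with CD163 at 0, was 5.29 to 7.10, 10.4 to 11.3 and 6.58 to 8.62 CPM in the same order, and that of stellate cells or fibroblasts was 3.29 to 7.19 CPM over all libraries. Of the 4 markers of stomach and esophagus lining, where ADH7 is known, 3 had at most 3 counts in any library. Of these, 2 (KRT13 and GKN1) had 0 counts in all libraries. The summed level of the 4 was 18.2 to 20.2 CPM in control, 19.2 to 21.5 in Ako-3 and 23.3 to 25.1 in Mko-3 libraries. APOB, the gene targeted in Ako-3 cells, fell by 1.36 on the log2 scale there, and MTTP had 9144 to 11941 counts in control and 1271 to 1587 in Mko-3 libraries. MTTP fell by 2.88 on the log2 scale in Mko-3 cells (edgeR adjusted p = 9.4e-19).

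Levels were compared between the members with the deposited FPKM values, which are counts per length of gene and per library size. ADH5 made up most of the cluster's RNA in every library, and the class I and class II genes typical of adult liver had at most 22 counts in any library. Averaged over the 9 libraries, the order was ADH5 at 47.8 FPKM, ADH6 at 5.24, ADH1C at 0.429, ADH4 at 0.193, ADH1A at 0.0282, ADH1B at 0.0030 and ADH7 at 0. The ranges of ADH5 (45.5 to 49.7 FPKM) and ADH6 (3.72 to 6.83 FPKM) did not touch each other or those below. ADH1C and ADH4 changed places between groups. In control cells ADH4 had the higher mean and the ranges overlapped, while in each clone every library had more ADH1C than any library of that clone had ADH4. The order of ADH1A, ADH1B and ADH7 rests on 10 counts, 5 counts and 0 counts in all. The levels of ADH1B and ADH1C may miss reads from their overlap, since how those were counted is not stated.

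**Figure D1:**
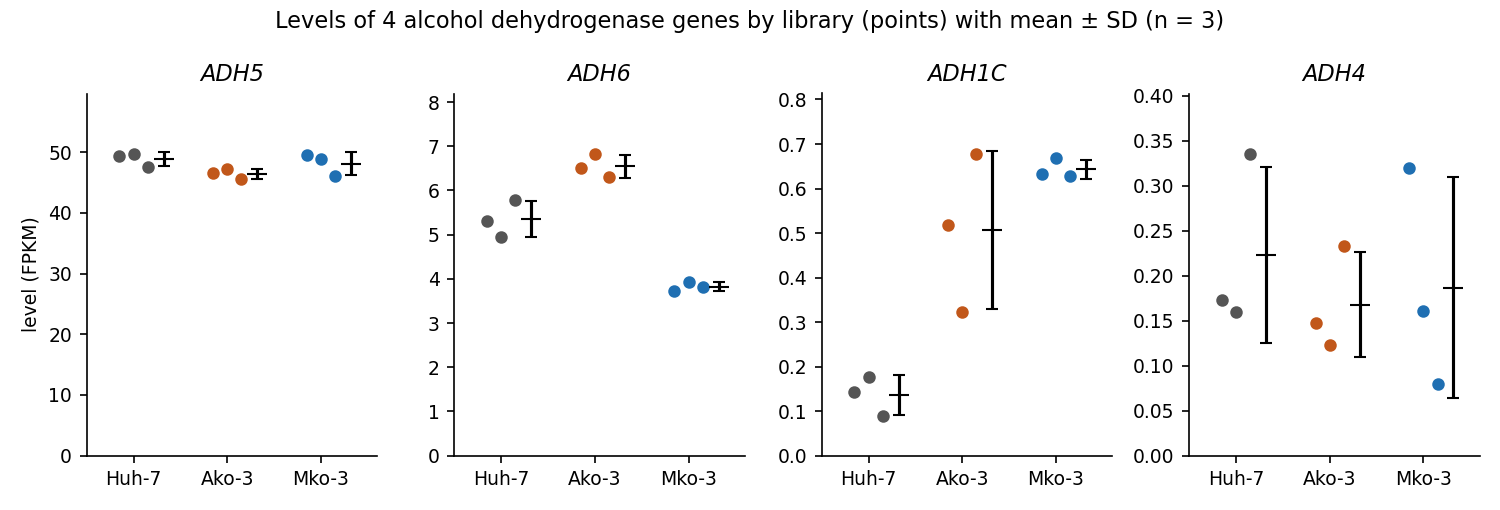
Deposited FPKM (vertical axes, each from 0) of ADH5, ADH6, ADH1C and ADH4 in the 3 libraries (points) of control Huh-7, Ako-3 and Mko-3 cells, with the mean and SD of each group in black. ADH5 is near 48 FPKM throughout, the 3 groups are apart for ADH6, the control libraries are below both clones for ADH1C, and the groups overlap for ADH4.

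A gene was called when its log2 fold change was at least 1 in size and its Benjamini-Hochberg adjusted p was at most 0.05 in edgeR's quasi-likelihood test, fitted on all genes kept by a filter on low counts in the 6 libraries of a comparison. ADH5, ADH6 and ADH1C passed the filter in all 3 comparisons, and ADH1A, ADH1B, ADH4 and ADH7 passed in none. In Ako-3 against control cells 1 of the 3 tested members was called, and it was higher, where 8.52% of the 15787 genes tested were called and 3.52% were called higher. In Mko-3 against control cells 1 of 3 was again called and higher, where 11.0% of 15745 genes were called and 3.82% were called higher. The member was ADH1C in both comparisons, which share the control libraries. ADH1C passed the filter only through the clones' libraries, where it was higher. The filter thus shaped both the count of called members and its direction, and neither can be judged against the shares over all genes. Between the clones no member was called, where 5.73% of 15528 genes were. By the adjusted p alone, 2 of 3 members passed in Ako-3 against control cells (49.9% of all genes), 2 of 3 in Mko-3 against control cells (54.0%) and 1 of 3 between the clones (41.6%). With 3 libraries a group, an exact permutation test of a single gene could not give a p below 0.1.

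ADH1C changed most among the 3 tested members, from a very low level. The control libraries had 5, 5 and 3 counts, the Ako-3 libraries 16, 12 and 22, and the Mko-3 libraries 21, 22 and 18. Every library of both clones was thus above every control library, and the Ako-3 and Mko-3 libraries overlapped each other. In CPM the means were 0.255 ± 0.0827 in control, 0.955 ± 0.332 in Ako-3 and 1.21 ± 0.0438 in Mko-3 cells (SD, n = 3 each).

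The rise of ADH1C was 1.87 on the log2 scale in Ako-3 cells (SE 0.50, edgeR adjusted p = 0.0037), or 3.66-fold. In Mko-3 cells it was 2.22 (SE 0.45, edgeR adjusted p = 0.00026), or 4.66-fold. Between the clones the log2 difference of ADH1C was 0.35, with a 95% interval from -0.36 to 1.07 (edgeR adjusted p = 0.46). ADH1C passed the filter on low counts only through the clones' libraries, so that it could be tested only because it was higher there. The stretch of 16269 bases it shares with the annotated ADH1B bears on the counts of both genes. How reads there were counted is not stated. ADH1B had at most 2 counts in any library, which does not show how many reads of ADH1C, if any, went uncounted. Even in the clones, ADH1C made up little of the cluster, with a mean of 0.507 FPKM in Ako-3 and 0.643 FPKM in Mko-3 cells, against 46.4 and 48.1 FPKM of ADH5.

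ADH1A and ADH1B, the other class I genes, were too low to show whether they followed ADH1C. ADH1A had 0 counts in every control library, 5, 2 and 1 counts in the Ako-3 libraries, and 0, 2 and 0 in the Mko-3 libraries. Every Ako-3 library was thus above every control library, though by few counts. ADH1B had 0, 2 and 0 counts in the control libraries, 0, 1 and 0 in the Ako-3 libraries and 1, 1 and 0 in the Mko-3 libraries. Of these values, only the ADH1A count of 5 in 1 Ako-3 library was above the floor of 3 counts, and no fold change is given. In a fit without the filter, the edgeR adjusted p of ADH1A was 0.068 in Ako-3 and 0.41 in Mko-3 against control cells, and that of ADH1B was 0.79 and 1. A count of 0 allows a level of up to 0.149 to 0.205 CPM, depending on the library.

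ADH6 was the only member whose 3 groups were all apart from each other. The control libraries had 23.7, 22.0 and 25.8 CPM, the Ako-3 libraries 29.0, 30.5 and 28.1 CPM, and the Mko-3 libraries 16.6, 17.6 and 16.9 CPM. Every Ako-3 library was above every control library and every Mko-3 library was below. Ranges that do not overlap were common among all tested genes, at 57.8% in Ako-3 against control cells, 60.7% in Mko-3 against control cells and 49.6% between the clones.

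Against control cells, ADH6 was 1.22-fold higher in Ako-3 cells, a log2 difference of 0.28 (SE 0.09, edgeR adjusted p = 0.014), which is below the fold needed for a call. Without Ako-3 replicate 2 this difference was 0.26 and its edgeR adjusted p was 0.066, so that the passing p of ADH6 in Ako-3 cells rests on that library. In Mko-3 cells ADH6 was lower by 29.3%, a log2 difference of -0.50 (SE 0.10, edgeR adjusted p = 0.00022). The difference between the clones was tested directly and was -0.78 on the log2 scale (95% interval -0.95 to -0.61, edgeR adjusted p = 2.2e-12). A difference of this size or larger was found in 9.36% of the genes tested between the clones. The summed hepatocyte and endothelial markers given above had the same order of groups as ADH6, but single markers did not all follow it. In Mko-3 against control cells 5 hepatocyte markers were higher and 3 lower, and by the adjusted p alone 2 were higher and 2 lower. The endothelial marker CDH5 had the reverse order, with 4.23 CPM in Ako-3, 5.16 in control and 6.50 in Mko-3 cells. The part of these markers in the result was not tested.

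ADH5, the formaldehyde enzyme, was the steadiest of the tested members. It had 243, 244 and 235 CPM in the control libraries, 229, 233 and 224 CPM in the Ako-3 libraries and 243, 241 and 225 CPM in the Mko-3 libraries. All Ako-3 libraries were just below all control libraries, and the Mko-3 libraries overlapped both other groups. The log2 difference from control cells was -0.08 in Ako-3 cells (95% interval -0.20 to 0.04, edgeR adjusted p = 0.28) and -0.03 in Mko-3 cells (95% interval -0.16 to 0.09, edgeR adjusted p = 0.65). Between the clones it was 0.05 (95% interval -0.04 to 0.13, edgeR adjusted p = 0.41). These intervals hold changes of ADH5 of at most 0.20 on the log2 scale.

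ADH4, the class II enzyme, had 8, 6 and 15 counts in the control libraries, 6, 6 and 10 in the Ako-3 libraries and 14, 7 and 3 in the Mko-3 libraries. The 3 groups overlapped, with 0.223 ± 0.0977 FPKM in control, 0.168 ± 0.0582 in Ako-3 and 0.187 ± 0.122 in Mko-3 cells (SD, n = 3 each). In the fit without the filter the log2 difference of ADH4 from control cells was -0.41 in Ako-3 cells (95% interval -1.53 to 0.72) and -0.22 in Mko-3 cells (95% interval -1.32 to 0.88), and a fall of ADH4 by 1 on the log2 scale lies within both intervals. ADH7 had 0 counts in all 9 libraries.

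Because ADH6 and ADH5 moved unequally, the make-up of the cluster differed between the groups. ADH5 held 89.5% ± 0.970 of the summed FPKM of the 7 genes in control, 86.4% ± 0.142 in Ako-3 and 91.1% ± 0.186 in Mko-3 cells (SD, n = 3 each). ADH6 held 9.81% ± 0.881, 12.2% ± 0.306 and 7.25% ± 0.339 in the same order, and the other 5 genes together 0.666% ± 0.110, 1.39% ± 0.441 and 1.61% ± 0.189. The ratio of ADH5 to ADH6 in FPKM was 8.23 to 10.0 in the control libraries, 6.91 to 7.22 in the Ako-3 libraries and 12.1 to 13.3 in the Mko-3 libraries, with no overlap between groups. The summed FPKM itself was 54.6 ± 0.676 in control, 53.7 ± 0.874 in Ako-3 and 52.8 ± 1.96 in Mko-3 cells (SD, n = 3 each). Among all 58735 genes of a library, ADH5 ranked 776 to 986 by FPKM and ADH6 ranked 5996 to 8340.

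**Figure D2:**
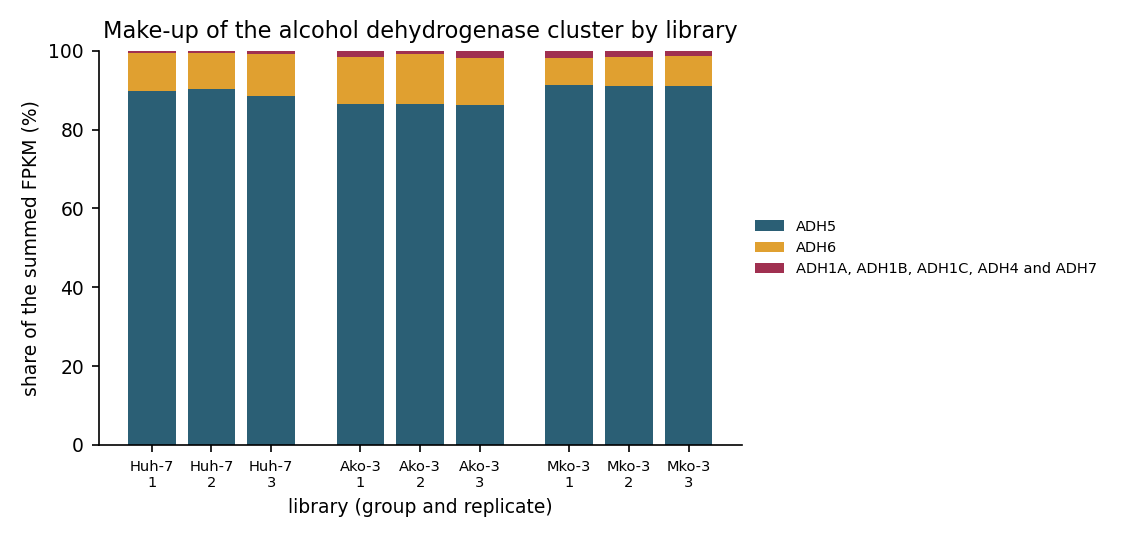
Share (percent, from 0 to 100) of the summed FPKM of the 7 alcohol dehydrogenase genes held by ADH5, by ADH6 and by the other 5 genes together, in each of the 9 libraries. ADH5 holds 86.3% to 91.4% in every library, and the ADH6 share is highest in the Ako-3 and lowest in the Mko-3 libraries.

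The members were then set beside their neighbours on the chromosome, since the gene targeted in Mko-3 cells lies near the cluster, 128 kb beyond its end. Of 33 genes within 500 kb of the cluster, 13 passed the filter in the libraries compared, namely ADH5, ADH6, ADH1C and 10 others. Besides ADH1C, the called genes were MTTP itself and AC083902.1, an antisense gene that overlaps MTTP. AC083902.1 had 15, 16 and 21 counts in control, 21, 21 and 16 in Ako-3 and 8, 2 and 3 in Mko-3 libraries, and fell by 1.95 on the log2 scale in Mko-3 against control cells (SE 0.50, edgeR adjusted p = 0.0023). It passed the filter on low counts only through the control libraries, and its log2 difference was -2.67 to -1.58 without 1 library at a time. Its reads cannot be told apart from those of MTTP where the exons overlap.

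The other 8 tested neighbours were not called in any comparison. Over all genes, 8.52% were called in Ako-3 and 11.0% in Mko-3 against control cells, and 5.73% between the clones. So few neighbours can readily hold no called gene at these shares. EIF4E, which encodes the cap-binding translation factor, was 0.51 higher on the log2 scale in Mko-3 against control cells (edgeR adjusted p = 1.3e-05), and METAP1, a methionine aminopeptidase, was 0.17 higher (edgeR adjusted p = 0.049). DNAJB14, a membrane chaperone gene beyond MTTP, was 0.38 lower in Ako-3 (edgeR adjusted p = 0.0019) and 0.34 lower in Mko-3 cells (edgeR adjusted p = 0.0029). TRMT10A, a tRNA methyltransferase gene whose annotated start overlaps that of MTTP, was 0.46 lower in Ako-3 cells (edgeR adjusted p = 0.020), and its difference in Mko-3 cells was -0.22 (edgeR adjusted p = 0.19). TSPAN5, LAMTOR3, AC019131.2 and AP002026.1 had edgeR adjusted p values of 0.11 or more in every comparison. For AP002026.1, which runs through ADH6 on the other strand, the counts were 43 to 49 in control, 48 to 60 in Ako-3 and 56 to 66 in Mko-3 libraries, and its mean was highest in the clone where ADH6 was lowest.

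Over the whole of chromosome 4 without the members and MTTP, the genes on the side of the cluster had a median log2 fold change of 0.10 in Mko-3 against control cells (348 genes) and those beyond the start of MTTP one of -0.25 (232 genes). In Ako-3 against control cells the medians were near 0 at -0.0023 (346 genes) and -0.06 (233 genes). The medians of the 9 tested neighbours within 500 kb, again without the members and MTTP, were 0.11 in Ako-3 and -0.05 in Mko-3 against control cells. ADH6, at -0.50 in Mko-3 cells, thus lay below the median of its own side, and ADH1C, at 2.22, far above it. The part of the chromosome in these differences was not tested.

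**Figure D3:**
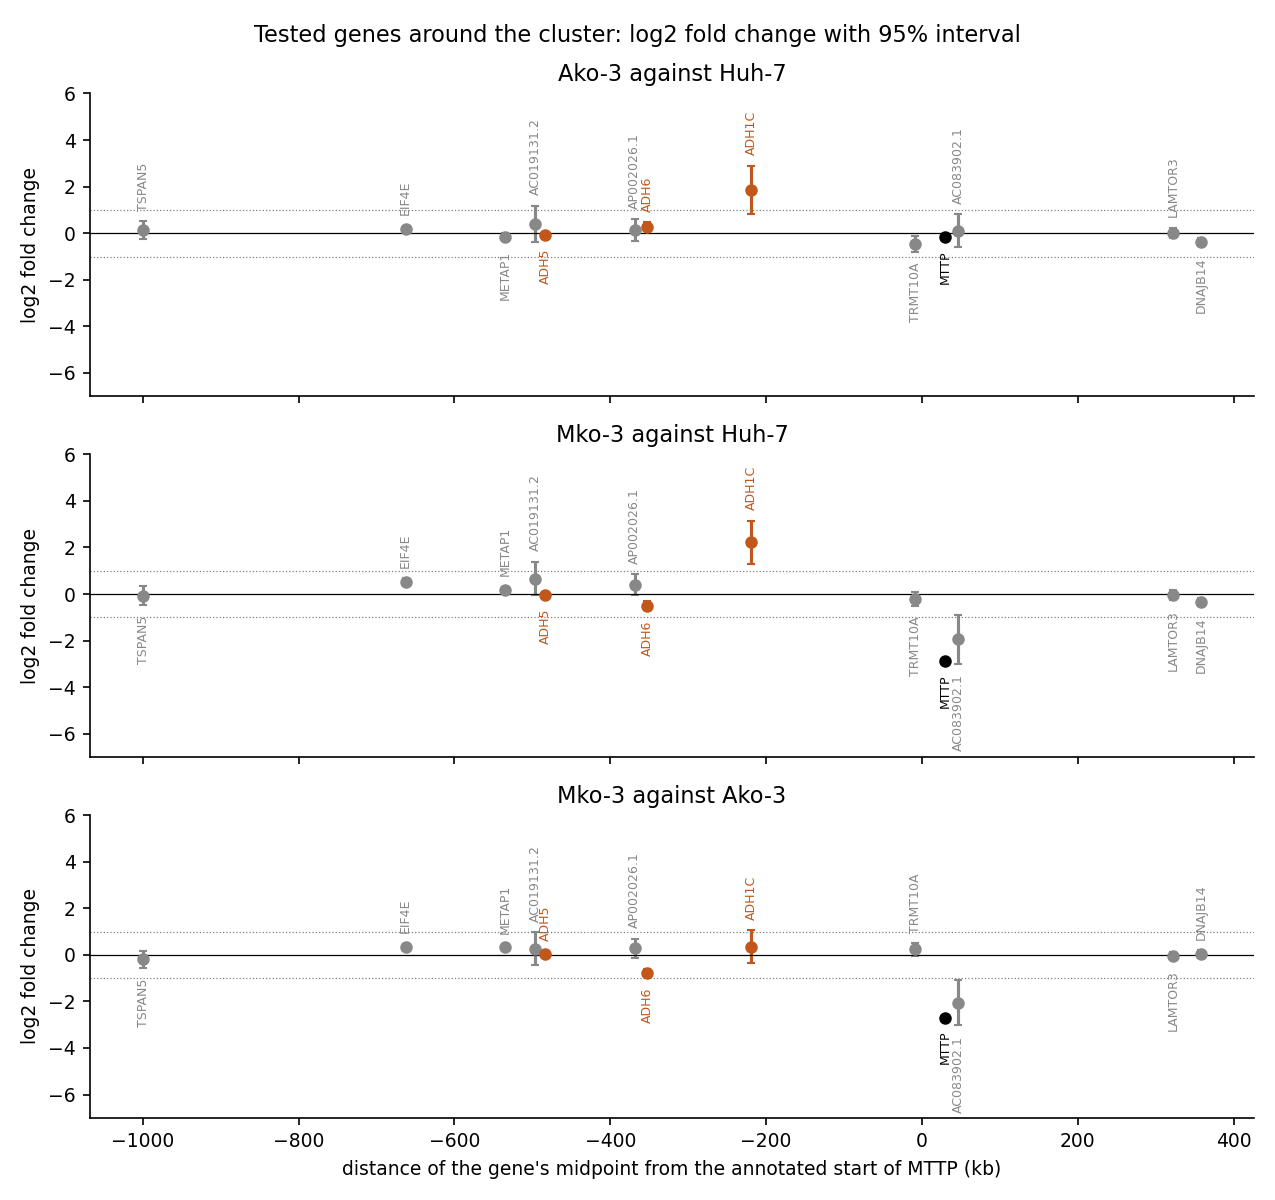
Log2 fold change (points) with its 95% interval (bars) for the 13 tested genes within 500 kb of the cluster, against the distance in kb of the gene's midpoint from the annotated start of MTTP, in 3 comparisons. Members are in orange, MTTP in black and other genes in grey, and the dotted lines mark a log2 fold change of 1 in either direction. ADH1C lies above 1 in both clones against control cells, and MTTP and the antisense gene AC083902.1 lie below -1 where Mko-3 cells are compared.

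The enzymes that take over from the alcohol dehydrogenases were described next. Of the 19 aldehyde dehydrogenases listed, 16 were tested, and 1 was called higher and 1 lower in Ako-3, and 1 higher and 2 lower in Mko-3 against control cells. These are 12.5% and 18.75% of the list, beside the 8.52% and 11.0% of all genes given above. The median log2 fold change of the list was 0.20 in Ako-3 and -0.16 in Mko-3 cells, against -0.0087 and -0.011 over all genes tested. Between the clones 14 of the 16 were lower in Mko-3 cells, 13 of them with an adjusted p of at most 0.05, and 2 were called lower, with a list median of -0.35. Of all genes tested between the clones, 20.6% were lower in Mko-3 cells with an adjusted p of at most 0.05 and 3.47% were called lower. Without Ako-3 replicate 1, 4 of the list were called between the clones.

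ALDH2, the mitochondrial enzyme that clears most acetaldehyde, followed the same order as ADH6. It had 253, 227 and 235 CPM in control, 263, 276 and 284 CPM in Ako-3 and 159, 155 and 152 CPM in Mko-3 libraries, with no overlap between any 2 groups. Its log2 difference from control cells was 0.20 in Ako-3 (edgeR adjusted p = 0.013) and -0.63 in Mko-3 cells (edgeR adjusted p = 3.1e-08), and between the clones it was -0.82 (edgeR adjusted p = 2e-27). None of these reached the fold needed for a call.

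ALDH8A1, an enzyme of tryptophan breakdown, had 3.38 ± 0.132 CPM in control cells and rose to 20.3 ± 2.69 CPM in Ako-3 (edgeR adjusted p = 1.5e-11) and 11.6 ± 0.982 CPM in Mko-3 cells (SD, n = 3 each, edgeR adjusted p = 5.6e-09). ALDH6A1, which acts in the breakdown of valine, fell by 1.44 on the log2 scale in Mko-3 cells (edgeR adjusted p = 9e-13), and its difference in Ako-3 cells was -0.07 (edgeR adjusted p = 0.35). ALDH1L2, the mitochondrial formyltetrahydrofolate dehydrogenase, fell in both clones, with a log2 difference of -1.15 in Ako-3 (edgeR adjusted p = 0.00026) and of -1.86 in Mko-3 cells (edgeR adjusted p = 3.1e-07). Without Huh-7 replicate 3 the difference of ALDH1L2 in Ako-3 cells was -0.86 and no longer called. ALDH3A1 was called between the clones alone, at 0.948 CPM in Mko-3 against 2.33 CPM in Ako-3 cells. Its log2 difference of -0.89 in Mko-3 against control cells (edgeR adjusted p = 0.049) was called, at -1.17, without Huh-7 replicate 3 or without Mko-3 replicate 3.

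ALDH1A1, the most abundant of the named aldehyde dehydrogenases in counts and a retinal dehydrogenase, had 2568 to 2659 CPM in control, 2698 to 2756 CPM in Ako-3 and 2207 to 2235 CPM in Mko-3 libraries. It was 0.25 lower on the log2 scale in Mko-3 against control cells (edgeR adjusted p = 0.00036) and was not called.

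Of 6 other enzymes of ethanol and acetate, 4 were tested. None was called in Ako-3 against control cells or between the clones, and 1 was called lower in Mko-3 against control cells, with list medians of -0.14, -0.39 and -0.60 in that order. Of all genes, 8.52% were called in Ako-3 against control cells and 5.73% between the clones. At these shares 4 tested genes can readily hold none. In Mko-3 against control cells 7.22% of all genes were called lower. CYP2E1, the microsomal ethanol oxidase of adult liver, had 0 to 7 counts per library and was not tested. CAT, the gene of catalase, was 0.32 lower on the log2 scale in Mko-3 cells (edgeR adjusted p = 8.6e-05). ACSS3, a mitochondrial acyl-CoA synthetase, fell by 1.12 in Mko-3 cells (edgeR adjusted p = 1.8e-10), and ACSS2, which makes acetyl-CoA from acetate, was 0.88 lower there (edgeR adjusted p = 9.4e-10) and 0.43 lower in Ako-3 cells (edgeR adjusted p = 1.5e-05).

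All 9 listed partners of ADH5 in formaldehyde, methylglyoxal and glutathione metabolism were tested, and none was called by edgeR in any comparison. Of all genes, 8.52% were called in Ako-3 and 11.0% in Mko-3 against control cells, and 5.73% between the clones. At these shares a list of 9 can readily hold none. At the adjusted p alone, 5 were higher and 3 lower in Ako-3, and 2 higher and 2 lower in Mko-3 against control cells. Over all genes, 25.5% were higher and 24.4% lower by this rule in Ako-3 cells, and 26.9% higher and 27.1% lower in Mko-3 cells. ESD, which hydrolyses the S-formylglutathione that ADH5 makes, had 49.4, 47.7 and 49.2 CPM in control, 43.3, 43.4 and 42.8 CPM in Ako-3 and 46.0, 49.1 and 42.1 CPM in Mko-3 libraries. Its log2 difference from control cells was -0.18 in Ako-3 (edgeR adjusted p = 0.043) and -0.10 in Mko-3 cells (edgeR adjusted p = 0.28).

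Retinol is a substrate that several members share, and 34 genes of retinoid metabolism and transport were listed. In Ako-3 against control cells 24 were tested, with 1 called higher and 1 lower. In Mko-3 against control cells 25 were tested, with 0 called higher and 4 lower, and between the clones 1 was called higher and 3 lower in Mko-3 cells. The called genes were 8.33%, 16% and 16% of those tested, beside 8.52%, 11.0% and 5.73% of all genes (2.26% higher and 3.47% lower between the clones). The list medians were -0.15, -0.16 and -0.17 on the log2 scale.

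RBP2, a cellular retinol-binding protein best known from the intestine, moved in opposite directions in the clones. It had 79.5, 74.4 and 73.2 CPM in control, 179, 201 and 196 CPM in Ako-3 and 41.6, 37.1 and 34.1 CPM in Mko-3 libraries. It rose by 1.34 on the log2 scale in Ako-3 (edgeR adjusted p = 3.8e-12) and fell by 1.02 in Mko-3 cells (edgeR adjusted p = 1.3e-09). The size of the fall in Mko-3 cells was close to the threshold and the call was lost under 5 of 14 alternatives. It was -0.978, -0.998 and -0.944 without Huh-7 replicate 1, Mko-3 replicate 2 and Mko-3 replicate 3.

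CYP26C1, a retinoic acid hydroxylase, fell from 2.27 CPM in control cells, with a log2 difference of -1.29 in Ako-3 (edgeR adjusted p = 0.0052) and of -1.51 in Mko-3 cells (edgeR adjusted p = 0.0044). Without Ako-3 replicate 2 the difference of CYP26C1 in Ako-3 cells was -0.90 and not called. RDH16, a retinol dehydrogenase, and RBP7, a cellular retinol-binding protein, fell in Mko-3 cells from 2.54 and 1.06 CPM in control cells, with log2 differences of -1.76 (edgeR adjusted p = 0.00029) and -2.53 (edgeR adjusted p = 0.00094). RBP7 had 22, 14 and 19 counts in control and 7, 0 and 2 in Mko-3 libraries, and its difference was -3.96 without Mko-3 replicate 1 and -1.94 without Mko-3 replicate 2. CYP26C1, RDH16 and RBP7 passed the filter on low counts in these comparisons only with the control libraries, where they were higher. RBP4, the carrier of retinol in plasma, had a log2 difference of 0.18 in Ako-3 (edgeR adjusted p = 0.021) and of -0.16 in Mko-3 cells (edgeR adjusted p = 0.032), and DHRS3, which reduces retinal to retinol, had edgeR adjusted p values of 0.057 and 0.93.

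Transcription factors of liver were listed because the class I genes and ADH4 are known as their targets. All 21 were tested, with none called in Ako-3 against control cells or between the clones and 4 called lower in Mko-3 against control cells. The called factors were thus 19.0% of the list, where 7.22% of all genes were called lower. Over all genes, 8.52% were called in Ako-3 against control cells and 5.73% between the clones. By the adjusted p alone, 4 were higher and 9 lower in Ako-3, and 3 higher and 14 lower in Mko-3 cells, where 24.4% and 27.1% of all genes were lower. The list medians against control cells were -0.16 and -0.29.

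The called factors were CEBPB, DBP, HLF and NFIL3, all of the basic leucine zipper family, with DBP named after its values were seen. CEBPB fell by 1.29 on the log2 scale in Mko-3 cells (edgeR adjusted p = 2.6e-12), and DBP fell by 1.30 (edgeR adjusted p = 2.6e-08). HLF and NFIL3 lay at the threshold, with -1.02 and -1.0015, and HLF was not called without any 1 of 4 libraries (Huh-7 replicate 1 or 3, Mko-3 replicate 1 or 2), at -0.996 to -0.989, nor was NFIL3 without Huh-7 replicate 1 or 3 or Mko-3 replicate 3, at -0.983 to -0.959. Over all 14 alternatives HLF lost its call in 7 and NFIL3 in 9, which include DESeq2 for NFIL3 at -0.9945. In Ako-3 cells the log2 differences of CEBPB, HLF and NFIL3 were -0.75, -0.69 and -0.94, each below the fold for a call.

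**Figure D4:**
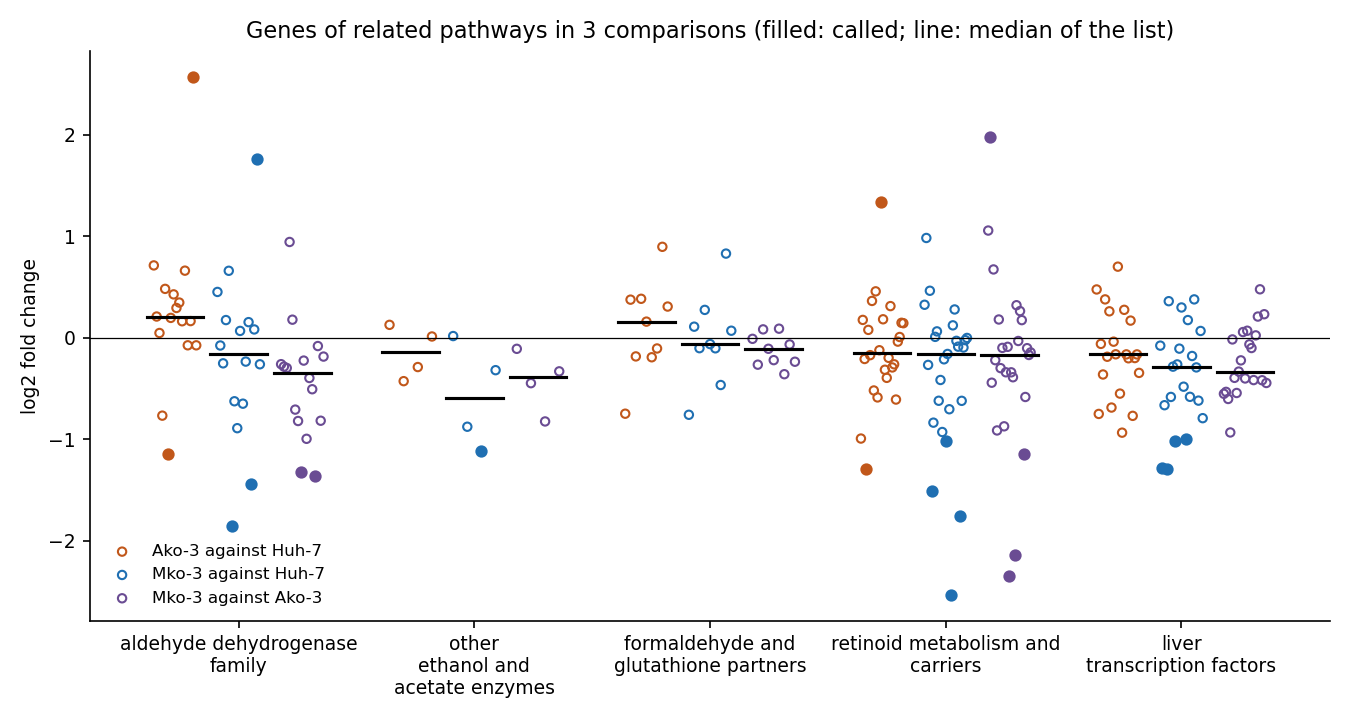
Log2 fold change of each tested gene of 5 lists in Ako-3 against control (orange), Mko-3 against control (blue) and Mko-3 against Ako-3 cells (purple). Filled points are called genes and black lines are list medians, which lie below 0 for every list in Mko-3 against control cells.

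Genes whose pattern over the 9 libraries was most like that of a member were found by Pearson's r of log2 CPM, as a description without a test, since the 9 libraries fall into 3 groups. For ADH6 they were ALOX5AP (r = 0.996), EAF1 (r = 0.994) and C4A (r = 0.987), of which C4A shares reads with a near identical copy. For ADH1C they were HAUS1 (r = 0.991), DHX34 (r = 0.988) and CANT1 (r = 0.987). For ADH5, whose log2 CPM ranged over only 0.124, they were AP001065.1 (r = 0.939), C6orf136 (r = 0.927) and ZNF273 (r = 0.918).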

How the data were processed

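Poly-A RNA of control Huh-7, Ako-3 and Mko-3 cells was sequenced as paired reads of 150 bases. Per the labels and the study's methods, the authors aligned reads to hg38 with HISAT2 2.0.5 and counted them on genes with featureCounts 1.5.0-p3. They deposited raw counts, and FPKM values in which each count is divided by the gene length and by 1 constant per library. The release of the annotation and the strand setting are not given in the sources used here. Replicates are named in the labels as biological, and how far they were cultured apart is not stated, so p values measure the spread between these libraries.

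Counts were tested with edgeR 4.0.16 in R 4.3.3 (robust quasi-likelihood F test, TMM factors, filterByExpr with min.count 10), in a fit of the 6 libraries of each comparison, with p values adjusted over all genes tested. DESeq2 1.42.0, limma 3.58.1 on log2(FPKM + 0.1) and log2(FPKM + 1), other filters and factors, a replicate block and leaving out each library were alternatives. The steps were tested on simulated data. CPM used TMM factors over 9 libraries. Sequences and exons came from RefSeq and GENCODE release 44.

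The members, lists and thresholds were chosen with earlier results of these data known. Genes named were the members, the targeted genes, up to 3 called genes of each list per comparison with the smallest adjusted p, 9 further enzymes, carriers and factors (1 of which is not reported here), all tested genes within 500 kb, and the 3 genes most like each tested member.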

Additional observations from a re-analysis of the deposited data

Results flagged for a closer look

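The direct test of Mko-3 against Ako-3 cells compares 2 clones, and 21 of 32 tested members, named list genes and neighbours, without the targeted genes, had an edgeR adjusted p of at most 0.05 in it. Of these 17 were lower and 4 higher in Mko-3 cells, and 41.6% of all genes pass this rule, though many of the 32 were named because they were called in 1 of the comparisons. The values below are log2 differences, Mko-3 minus Ako-3.

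ADH6, at -0.784 (edgeR adjusted p = 2.2e-12), was above control in every Ako-3 library and below control in every Mko-3 library. ALDH2 (-0.821), ALDH1A1 (-0.298), RBP4 (-0.341) and RBP2 (-2.352) had the same pattern, and METAP1 (0.330) the opposite one. Ranges apart from control were common, at 57.8% of all tested genes in Ako-3 and 60.7% in Mko-3 cells. The share of all genes that held either pattern was not counted. Ako-3 minus control, the log2 difference was 0.047 for ALDH1A1 (edgeR adjusted p = 0.5) and -0.157 for METAP1 (edgeR adjusted p = 0.093). Of the genes that were called, ALDH6A1 differed by -1.367, ALDH3A1 by -1.322, RDH16 by -1.147, RBP7 by -2.14 and AC083902.1 by -2.056, and CRABP2, a carrier of retinoic acid, by 1.98. The genes that differed without a call were ALDH8A1 (-0.818), ALDH1L2 (-0.709), ACSS3 (-0.826), ACSS2 (-0.448), CAT (-0.331), DHRS3 (0.180), CEBPB (-0.534), HLF (-0.334) and EIF4E (0.342).

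RDH16, RBP7, ALDH3A1 and CRABP2 had at most 68 counts in any library, and RDH16, RBP7, AC083902.1 and CRABP2 passed the filter on low counts only with the clone in which they were higher. The difference of RDH16 was -0.87 without Mko-3 replicate 1 (edgeR adjusted p = 0.070), and that of RBP7 was -3.58 without Mko-3 replicate 1 and -1.55 without Mko-3 replicate 2. CRABP2 had 0.399 CPM in Ako-3 and 1.58 CPM in Mko-3 cells. Against control cells CRABP2 was 0.98 higher on the log2 scale in Mko-3 cells and was not called, but it was called under 5 alternatives, at 1.30, 1.06 and 1.05 without Huh-7 replicate 1, Mko-3 replicate 2 and Mko-3 replicate 3, at 1.0014 with the replicate block and at 1.0164 without the filter.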

How the results depend on the processing

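Over the 99 log2 fold changes of named genes, 1309 of 1373 alternative values kept their direction and their side of the thresholds, 39 lost the call, 7 gained it and 18 changed sign. With at least 10 counts required in every library, 841, 1113 and 511 genes were called in Ako-3 against control, Mko-3 against control and Mko-3 against Ako-3 cells, in place of 1345, 1739 and 890. With limma on log2(FPKM + 1) these were 317, 429 and 200. In both settings 0 members were called against control cells in place of 1, since ADH1C could not be tested in the first and the pseudocount reduced its difference to 0.40 and 0.53 in the second, with limma adjusted p values of 0.0056 and 0.00014. Without 1 library at a time, 1254 to 1637, 1623 to 2106 and 895 to 964 genes were called, and ADH1C stayed called at 1.61 to 2.13 in Ako-3 and 1.99 to 2.43 in Mko-3 cells. The order of the 7 members by FPKM was the same under all 10 alternatives.

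Libraries with the same replicate number did not deviate together (correlations from -0.072 to 0.064), so the numbers do not pair the libraries. A fit with the replicate block called 1336, 1730 and 899 genes, and gave ADH1C at 1.87 and 2.22 and ADH6 at 0.29, -0.50 and -0.78. No member changed its call under the block, and among the named genes CRABP2 gained one in Mko-3 against control cells, at 1.0014.

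The changes of sign were in differences that were not called, and the ranges below are those without 1 library at a time. In Ako-3 against control cells they were AP002026.1 (-0.0316 to 0.2568), AC083902.1 (-0.041 to 0.2329, with -0.0103 between) and LAMTOR3 (-0.094 to 0.0975, with -0.0502 and -0.0147 between, and -0.0009 with at least 10 counts in every library). In Mko-3 against control cells they were ADH5 (-0.0529 to 0.0085), TSPAN5 (-0.1463 to 0.0746), LAMTOR3 (-0.0933 to 0.0393) and DHRS3 (-0.035 to 0.0539, with -0.0022 between, and -0.0026 with the stricter filter). Between the clones they were CYP26C1 (-0.6071 to 0.2706, with 0.2367 between), LAMTOR3 (-0.1153 to 0.0574) and DNAJB14 (-0.0108 to 0.0911, with -0.0029 between). Depth limits ADH1A, ADH1B, ADH4 and ADH7, which were too low to test, and gives ADH1C wide errors.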
